A study of Oryza sativa with 12 samples.

Results

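Root transcripts of the rice lines Xieqingzao B and R9308 were compared at the tillering stage, when a rice plant forms side shoots. The comparison rests on 4 of the 12 libraries of the study, 2 of each line. It covers 28434 of the 42081 annotated transcripts, left after edgeR dropped those without enough counts in at least 2 tillering libraries. Xieqingzao B is an indica line and the maternal parent of the hybrid Xieyou9308, and R9308 is its paternal parent, a restorer line that carries some japonica background. Seedlings of all genotypes were raised in the field and then grown on floating foam in a pool of nutrient solution, so no group was treated. The labels and methods state that 2 roots of each genotype were taken at each stage, and whether each library came from a separate plant is not given in the sources used here. The p-values therefore measure the spread between these libraries, which may be technical in part. Both lines were also sampled at the heading stage, with 2 libraries each, and these are used below as separate samples. The hybrid libraries of the tillering stage enter the fit only for its estimate of the spread, and their levels are given as values.

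Inbred rice lines differ in the genes they carry as well as in how strongly they use them, and the japonica genome to which the reads were mapped resembles each line to a different degree. A transcript can therefore have no reads in 1 line because it is not transcribed, because its gene is missing, or because its sequence differs too much for the reads to be placed. These cases cannot be told apart with counts. Levels are given as RPKM, read counts scaled by transcript length and by library size. Fold changes are log2 fold changes of Xieqingzao B over R9308. The value after ± is the absolute log2 fold change divided by the square root of the F statistic of its edgeR test. It stands in for a standard error and is rough where a parent had few counts. A transcript was called at an adjusted p (edgeR quasi-likelihood test, Benjamini-Hochberg over all transcripts tested) of at most 0.05 and a fold change of at least 2. With 2 libraries against 2, an exact permutation test of a single transcript cannot give a two-sided p below 0.333, so the agreement of libraries was also described. A transcript is termed separated where both libraries of 1 parent lay at least 2-fold above both libraries of the other.

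The 4 libraries held between 9114100 and 15830233 counts, and their TMM factors were close to 1. All 4 held root transcripts, though some of the 7 root markers were low. The silicon influx transporter Lsi1 (Os02t0745100) had 128 and 125 RPKM in R9308 and 196 and 158 RPKM in Xieqingzao B. The efflux transporter Lsi2 (Os03t0107300) had 72.8 and 56.0 RPKM in R9308 and 79.5 and 54.1 RPKM in Xieqingzao B. Of the 7 root markers, only the nitrate transporter component Os02t0595900 and the sodium transporter Os01t0307500 were separated, both higher in Xieqingzao B. R9308 replicate 1 stood apart by markers of green tissue. The 39 transcripts listed as photosynthetic antenna proteins took 0.716% of its counts, against 0.00148% in R9308 replicate 2 and 0.00185% and 0.000878% in Xieqingzao B. Of the 39, 35 had any read, 33 of them highest in replicate 1, and 24 reached 10 RPKM there, while none reached 10 RPKM in the other 3 libraries. The transcripts of the rubisco small chain summed to 2275 RPKM in R9308 replicate 1 and to 4.28, 4.91 and 4.06 RPKM in the others. The 48 glutelin or prolamin transcripts, seed storage proteins, summed to 159, 204, 248 and 156 RPKM in the same order, so this list did not single out a library. The part of the green-tissue transcripts in the other differences was not tested, and transcripts that stood out in replicate 1 alone are given apart.

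Across the whole table, 7 transcripts were called, 0.0246% of those tested, 6 of them higher in Xieqingzao B (0.0211%) and 1 higher in R9308 (0.00352%). An unadjusted p under 0.05 was reached by 2563 transcripts. The small number of calls goes with a wide spread between the 6 tillering libraries. Their common biological coefficient of variation was 0.554, against 0.370 at heading. This includes the hybrid, whose replicates differed more (SD of the log2 ratio 1.63) than those of R9308 (1.14) and Xieqingzao B (1.17). With the 4 parental libraries alone, 3 transcripts were called and 3470 had an unadjusted p under 0.05 (edgeR). With the 6 tillering libraries DESeq2 called 1253 transcripts, and the exact tests of edgeR called 1734 with a common dispersion and 1076 with tagwise dispersions. Without any 1 of the 4 parental libraries no transcript was called, and the smallest adjusted p (edgeR) then lay between 0.153 and 0.266. All 7 transcripts were called at heading too, in the same direction, where 2926 of 27187 transcripts tested (10.8%) were called. The 7 had both libraries of each parent on the same side at both stages.

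The largest group of such transcripts lay side by side on chromosome 7, in a run of loci annotated as thionin-like peptides or as conserved hypothetical proteins. Thionins are small, cysteine-rich peptides that plants make against microbes, and they are released from longer precursors. In this run Xieqingzao B was high and R9308 was near 0. Os07t0429700-01, a conserved hypothetical protein, had 0.441 and 0.392 RPKM in R9308 and 678 and 798 RPKM in Xieqingzao B. Its log2 fold change was 10.71 ± 0.46 (adjusted p = 0.0124, edgeR). The hypothetical protein Os07t0432333-01 had 0.461 and 0.410 RPKM in R9308 and 886 and 898 RPKM in Xieqingzao B, a log2 fold change of 10.92 ± 0.45 (adjusted p = 0.0124, edgeR). In both transcripts the Xieqingzao B libraries were close together and far above those of R9308, which stayed under 1 RPKM.

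All 4 transcripts annotated as thionin-like were tested and separated, higher in Xieqingzao B, and 1 of them was called. The called transcript, Os07t0431160-00, had 0 and 0.196 RPKM in R9308 and 414 and 506 RPKM in Xieqingzao B (adjusted p = 0.0444, edgeR). Its few R9308 counts give a ratio of 3755 with a 95% exact counting interval from 1039 to 31013. Os07t0432201-01 had 0 and 0.776 RPKM in R9308 and 1134 and 863 RPKM in Xieqingzao B, which did not pass the test (log2 fold change 11.06 ± 1.11, adjusted p = 0.0795, edgeR). The other 2 had no read in either R9308 library. Os07t0430501-00 had 43.3 and 77.4 RPKM in Xieqingzao B, at least 142-fold higher against a floor of 3 counts per library (adjusted p = 0.0795, edgeR). Os07t0429600-00 had 11.7 and 5.85 RPKM, at least 20.3-fold higher (adjusted p = 0.142, edgeR). The loci Os07t0432100 and Os07t0432566 within and beside the run had no read in any library, and at the next tested locus, the Myb factor Os07t0432800-01, the parents overlapped at 2.92 and 2.92 RPKM against 3.51 and 1.43 RPKM. Near-identical copies can share reads, so the split of the total between these loci is uncertain.

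**Figure D1:**
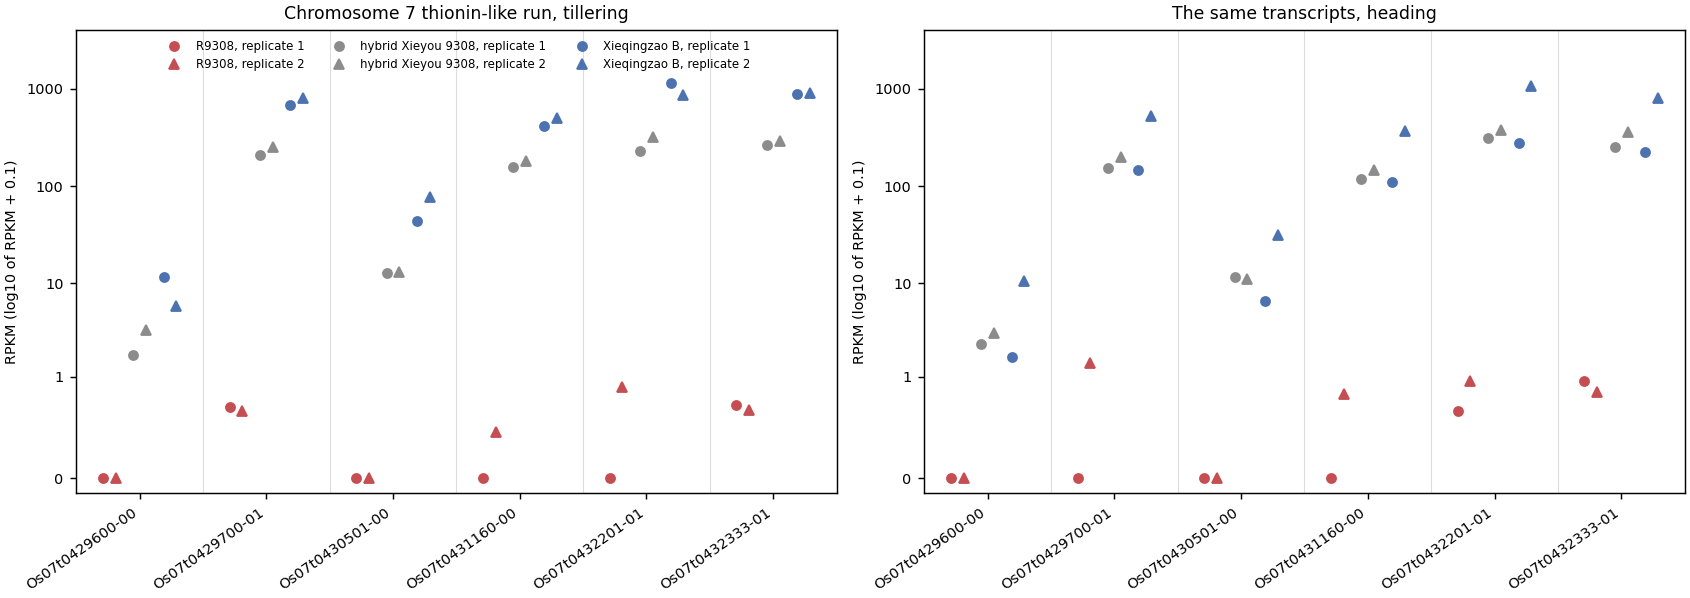
RPKM on a log axis of 6 neighbouring transcripts of the thionin-like run on chromosome 7 in every library (circles, replicate 1; triangles, replicate 2) at tillering (left) and heading (right). The Xieqingzao B libraries lie between 5.85 and 1134 RPKM at tillering, R9308 stays under 1 RPKM, and the hybrid lies between them.

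The same transcripts were high in Xieqingzao B at heading. Os07t0432201-01 had 0.391 and 0.898 RPKM in R9308 and 275 and 1060 RPKM in Xieqingzao B there (adjusted p = 0.00649, edgeR). In the tillering libraries of the hybrid, Os07t0429700-01 had 207 and 250 RPKM and Os07t0432333-01 had 261 and 290 RPKM. The hybrid thus lay below both Xieqingzao B libraries and far above both R9308 libraries.

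The other called transcripts had no or little function in the annotation, except for 1. Os11t0303800-01, a conserved hypothetical protein, had 0.346 and 0.336 RPKM in R9308 and 159 and 177 RPKM in Xieqingzao B (log2 fold change 8.90 ± 0.41, adjusted p = 0.0136, edgeR). Os05t0103800-00, similar to a predicted protein, had 0.506 and 0.450 RPKM in R9308 and 65.4 and 76.7 RPKM in Xieqingzao B (log2 fold change 7.13 ± 0.45, adjusted p = 0.0415, edgeR). Os03t0440466-00, also similar to a predicted protein, had 0 and 0.162 RPKM in R9308 and 110 and 105 RPKM in Xieqingzao B (adjusted p = 0.0444, edgeR), a ratio of 1082 (95% exact counting interval 194 to 42771). In all 3 the parents were far apart and both hybrid libraries lay far above R9308, for example at 82.0 and 107 RPKM in Os03t0440466-00. The single transcript called higher in R9308 was Os11t0614400-01, similar to patatin-like protein 1. Patatins are lipid acyl hydrolases known as storage proteins of the potato tuber. It had 44.5 and 66.1 RPKM in R9308 and 0.475 and 0.542 RPKM in Xieqingzao B, with 16.2 and 16.2 RPKM in the hybrid (log2 fold change -6.79 ± 0.42, adjusted p = 0.0415, edgeR). At heading it had 15.0 and 8.29 RPKM in R9308 and no read in Xieqingzao B.

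Among transcripts with a named function and a mean of at least 5 RPKM, those with the largest gap between the parents were taken in each direction. Their directions are fixed by that choice, and none but those given above passed the test at tillering. Os10t0137300-00, similar to BLN1-1, was the most abundant of those higher in Xieqingzao B. Blufensins are small secreted peptides described in barley, where they dampen basal defence. It had 0.383 and 1.02 RPKM in R9308 and 2595 and 2220 RPKM in Xieqingzao B (log2 fold change 11.60 ± 1.14, adjusted p = 0.0795, edgeR). The hybrid had 846 and 231 RPKM, and the heading libraries had 1.58 and 2.07 RPKM in R9308 and 1396 and 911 RPKM in Xieqingzao B (adjusted p = 0.00127, edgeR). On the same chromosome Os10t0136100-01, similar to the leucine-rich repeat protein Hv1LRR2, had no read in R9308 and 13.7 and 18.2 RPKM in Xieqingzao B, at least 226-fold higher (adjusted p = 0.116, edgeR). It too was called at heading (adjusted p = 0.00211, edgeR). The lipid transfer protein Os12t0114800-01, of a family of small secreted lipid binders, had 0.142 and 0 RPKM in R9308 and 127 and 64.1 RPKM in Xieqingzao B (adjusted p = 0.0795, edgeR). The ratio was 1707 with a 95% exact counting interval from 306 to 67470. At heading this transcript was low in both parents, with no read in R9308 and 1.42 and 4.88 RPKM in Xieqingzao B.

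In the other direction, SalT (Os01t0348900-01), a mannose-binding lectin known as a salt-induced protein of rice, had 642 and 290 RPKM in R9308 and 1.75 and 0 RPKM in Xieqingzao B. The difference did not pass the test at tillering (log2 fold change -8.99 ± 1.50, adjusted p = 0.147, edgeR). At heading it did, with 108 and 62.2 RPKM in R9308 and no read in Xieqingzao B (adjusted p = 0.00458, edgeR). The hybrid was nearer the lower parent, at 62.3 and 22.3 RPKM. The glucosyltransferase Os04t0206700-02, of a family that adds sugars to small molecules, had 17.7 and 16 RPKM in R9308 and no read in Xieqingzao B, at least 99.8-fold lower (adjusted p = 0.0605, edgeR). Its hybrid libraries, at 9.64 and 11.1 RPKM, fell between the parents, and at heading R9308 had 13.6 and 14.1 RPKM and Xieqingzao B again no read. This absence held for transcript 02 only. All transcripts of that locus summed to 20.6 and 19.0 RPKM in R9308 and 4.72 and 6.54 RPKM in Xieqingzao B. Os06t0578100-00, similar to a retrotransposon protein, had 39.0 and 37.9 RPKM in R9308 and 0.169 and 0 RPKM in Xieqingzao B (log2 fold change -8.66 ± 0.93, adjusted p = 0.0866, edgeR). Some of these differences were not seen at heading. The BURP domain protein Os05t0215066-00 had 86.6 and 51.9 RPKM in R9308 and no read in Xieqingzao B at tillering, at least 174-fold lower (adjusted p = 0.147, edgeR), whereas at heading no parental library exceeded 0.464 RPKM. The amino acid permease-like Os07t0134000-02 had 17.7 and 11.3 RPKM in R9308 and no read in Xieqingzao B at tillering, at least 94.7-fold lower (adjusted p = 0.0795, edgeR), and 2.74 and 1.53 RPKM against 1.47 and 1.18 RPKM at heading.

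Several of the largest gaps were exchanges between transcripts of 1 locus. Transaldolase, an enzyme of the pentose phosphate pathway, is encoded at Os01t0926300 with 3 listed transcripts. Transcript 01 had 0 and 4.56 RPKM in R9308 and 542 and 646 RPKM in Xieqingzao B (adjusted p = 0.28, edgeR). Transcript 02 had 385 and 484 RPKM in R9308 and no read in Xieqingzao B, at least 2374-fold lower (adjusted p = 0.19, edgeR). The reads of the parents were thus assigned to different listed transcripts, at both stages. Different use of transcripts and different sequence cannot be told apart with counts. The sum over the locus had a log2 fold change of only 0.18 (adjusted p = 0.968, edgeR). The glycine-rich cell wall protein Os10t0450900 had the same form. Its transcript 03 had no read in R9308 and 29.3 and 91.6 RPKM in Xieqingzao B, while its transcript 01 had 32.9 and 19.7 RPKM in R9308 and no read in Xieqingzao B. The respiratory burst oxidase Os01t0360200, an enzyme that makes superoxide, had 26.7 and 16.7 RPKM of transcript 02 in R9308 and none in Xieqingzao B, at least 247-fold lower (adjusted p = 0.45, edgeR), but a locus sum higher in Xieqingzao B by 0.83 on the log2 scale (adjusted p = 0.746, edgeR). Os11t0572500-02 had 31.4 and 38.6 RPKM in R9308 and no read in Xieqingzao B, at least 90.3-fold lower (adjusted p = 0.077, edgeR), and a locus log2 fold change of 0.11. In all, 26 loci had separated transcripts in both directions.

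Over all transcripts, 799 were separated and higher in Xieqingzao B (2.81% of those tested) and 1588 were separated and higher in R9308 (5.58%), together 8.39%. In R9308, replicate 1 alone was at least 2-fold above the Xieqingzao B range for 1977 transcripts (6.95%) and below it for 1048 (3.69%). For replicate 2 alone the corresponding numbers were 292 (1.03%) and 548 (1.93%). In Xieqingzao B, replicate 1 alone was above the R9308 range for 552 transcripts (1.94%) and below it for 556 (1.96%), and replicate 2 alone for 955 (3.36%) and 2110 (7.42%). R9308 replicate 1 and Xieqingzao B replicate 2 were therefore the libraries that most often stood alone, and 542 transcripts were both high in the former alone and low in the latter alone. The filter by count kept only transcripts with enough reads in more than 1 library, so the numbers high in 1 library alone leave some out. Of the 39 antenna transcripts, 24 reached 10 RPKM in R9308 replicate 1 but only 9 were tested. For the rubisco small chain, 5 reached it and 3 were tested. Judged without R9308 replicate 1, 1429 transcripts were separated higher in Xieqingzao B and 1887 higher in R9308, and without Xieqingzao B replicate 2 the former number was 1389, a rule with 1 library fewer being easier to meet. Of the transcripts with a fitted difference of at least 2-fold, 4063 were higher in R9308. Of these, 39.1% were separated and 40.8% were above the Xieqingzao B range in replicate 1 of R9308 alone. Another 2326 were higher in Xieqingzao B, of which 34.4% were separated and 23.2% were below that range in replicate 1 of R9308 alone. Replicate 2 could lie on the same side by less than 2-fold, so these differences need not rest on replicate 1. An example is Os03t0432100-01, with 129 and 101 RPKM in R9308 and 60.4 and 38.6 RPKM in Xieqingzao B.

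The heading libraries, which the tillering classes did not use, differed between the classes. Of the 683 transcripts separated higher in Xieqingzao B and tested at both stages, 85.8% (95% exact binomial interval 83.0 to 88.3, counting error only) were higher in Xieqingzao B at heading, against 52.0% of all 26366 transcripts tested at both stages. Of the 1372 separated higher in R9308, 85.2% were higher in R9308 at heading, against 48.0% of all. Called at heading in the same direction were 340 (49.8%) and 672 (49.0%) of them, against a background of 4.32% called higher in Xieqingzao B and 6.41% called higher in R9308. The transcripts high in R9308 replicate 1 alone did not carry over. Of 1789, 41.5% (95% exact binomial interval 39.2 to 43.9) were higher in R9308 at heading, and 4.47% were called so, both below the share of all transcripts. Those low in R9308 replicate 1 alone were higher in Xieqingzao B at heading in 47.3% of 899. Those high in replicate 2 alone were higher in R9308 at heading in 78.5% of 247, with 23.9% called. Within the separated transcripts higher in R9308, the 60 with replicate 1 at least 4-fold above replicate 2 kept their direction less often in number, 60.4% of 48 tested at heading, than the 1333 whose replicates lay within 2-fold, 87.4%. Transcripts are not independent, and these intervals cover counting error only.

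**Figure D2:**
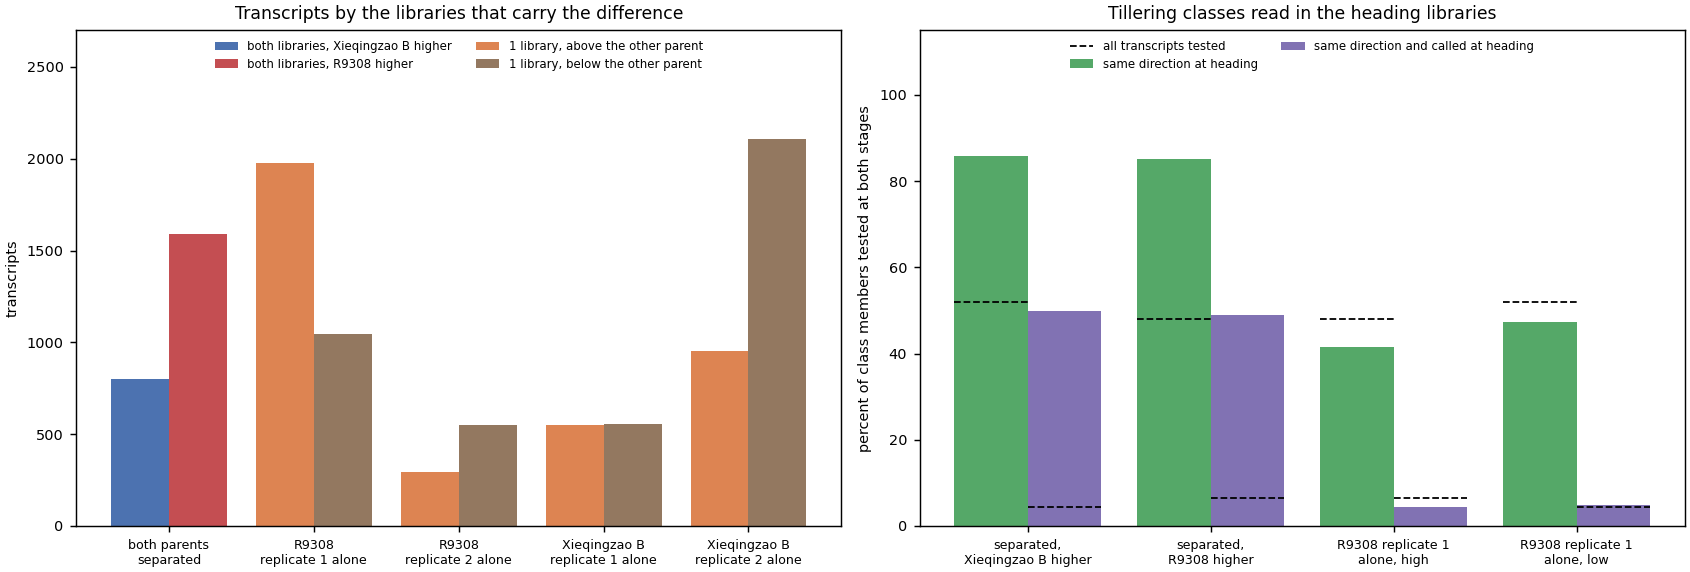
Left, number of transcripts separated between the parents or outside the other parent's range in 1 library alone, at tillering. Right, percent of each class with the same direction at heading and percent called at heading in that direction, with dashed lines for all transcripts tested at both stages. The separated classes reach 85.8% and 85.2% and the class high in R9308 replicate 1 alone reaches 41.5%.

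Separated transcripts were less abundant and less often annotated than the rest. Their median level over the 4 libraries was 2.58 RPKM where Xieqingzao B was higher and 3.10 RPKM where R9308 was higher, against 7.15 RPKM over all tested transcripts. The annotation gave no function for 44.3% and 44.5% of them, against 30.6% of all. The lower parent had no count in either library for 131 (16.4%) and 227 (14.3%) of them. By level, the share separated higher in R9308 was 10.5% under 1 RPKM and 2.83% from 100 RPKM, and the share higher in Xieqingzao B was 5.84% and 1.16%. Transcripts with the same values as another transcript made up 2.52% of those higher in R9308 and 0.499% of all, so that copies which share reads are counted more than once there. R9308 exceeded Xieqingzao B in the number of separated transcripts at each level.

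The transcripts furthest above the Xieqingzao B range in R9308 replicate 1 alone were those of leaf functions. The rubisco small chain, a subunit of the enzyme that fixes carbon dioxide, was represented by Os12t0291100-01, with 1003 RPKM in R9308 replicate 1, 0.494 RPKM in replicate 2 and 0.381 and 0.612 RPKM in Xieqingzao B. Os06t0320500-01, similar to light-harvesting complex I, which passes light energy to photosystem I, had 833, 0, 0.0814 and 0 RPKM in the same order. Catalase isozyme 2 (Os03t0131200-02), an enzyme that breaks down hydrogen peroxide, had 209, 1.0, 0.726 and 0.311 RPKM. In each of them replicate 1 stood alone and the other R9308 library overlapped the Xieqingzao B libraries or lay within 2-fold of them. The rubisco transcript Os12t0274700-01 had 777 RPKM, the chlorophyll a-b binding protein Os09t0346500-04 had 316 RPKM and the chloroplast fructose-bisphosphate aldolase Os11t0171300-02 had 190 RPKM in replicate 1, and none of the 3 exceeded 2.96 RPKM in the other 3 libraries. No fold change is given for these transcripts, since it would rest on 1 library. At heading the first of them went the other way, with 0.497 and 1.48 RPKM in R9308 and 6.92 and 14.6 RPKM in Xieqingzao B. Os06t0320500-01 likewise had 0.319 and 0.488 RPKM in R9308 and 14.7 and 16.6 RPKM in Xieqingzao B at heading (adjusted p = 0.0115, edgeR).

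**Figure D3:**
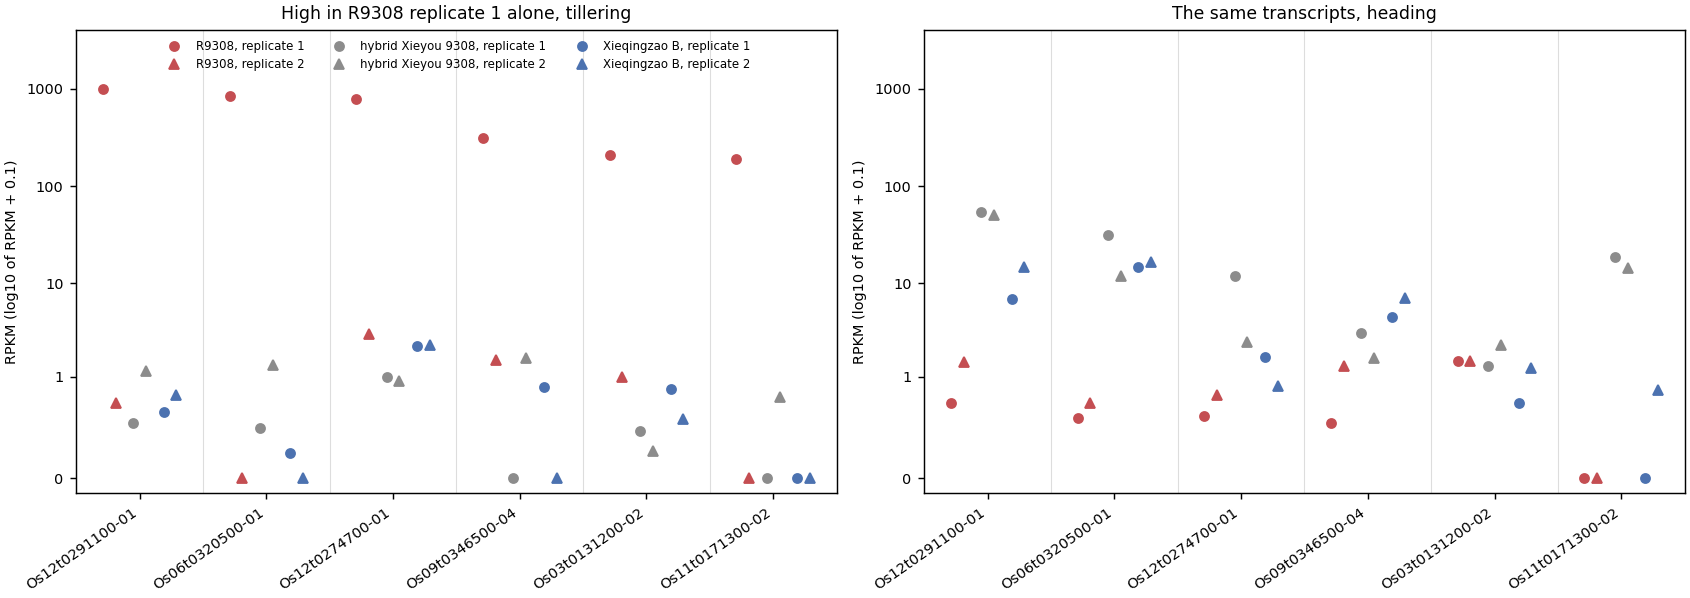
RPKM on a log axis of the 6 named transcripts furthest above the Xieqingzao B range in R9308 replicate 1 alone, in every library at tillering (left) and heading (right). At tillering replicate 1 of R9308 lies between 190 and 1003 RPKM and the other parental libraries at or under 2.96 RPKM.

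Lists of other functions held many transcripts of this kind. Of 30 photosynthesis transcripts tested, 14 were high in R9308 replicate 1 alone, and 4 were separated higher in R9308. Among these 4 were Os08t0560900-01, a photosystem I subunit with 292 and 1.26 RPKM in R9308 and 0.200 and 0.258 RPKM in Xieqingzao B, and Os07t0147900-01, a ferredoxin-NADP reductase precursor with 76.8 and 60.1 RPKM in R9308 and 25.9 and 18.9 RPKM in Xieqingzao B. Only the latter had R9308 replicates of like level. Of the 9 antenna transcripts tested, 5 were high in replicate 1 alone and 3 were separated, each at 21.7 RPKM or more in replicate 1 and at 4.85 RPKM or less in replicate 2. In carbon fixation, 21 of 112 were high in replicate 1 alone and 1 and 4 were separated higher in Xieqingzao B and in R9308. In nitrogen metabolism 14 of 50 were high in replicate 1 alone, against 6.95% of all transcripts. They included the shoot isozyme of glutamine synthetase (Os04t0659100-03) with 71.0 RPKM in replicate 1, 5.99 RPKM in replicate 2 and 7.26 and 7.44 RPKM in Xieqingzao B. Of 317 ribosome transcripts, 31 were high in replicate 1 alone, and 23 of these carried a 50S, 30S, chloroplast, cyanelle or bacterial-type annotation, such as Os02t0137200-01 (50S L3-1) with 36.6 RPKM against 0.650, 1.23 and 0.452 RPKM. Not every such transcript was a plastid one. The factor WRKY69 (Os08t0386200-01), of a family of transcription factors of defence and senescence, had 140 RPKM in replicate 1 against 11.3, 9.74 and 5.58 RPKM, and a calmodulin-like protein (Os01t0810300-01), a calcium sensor, had 59.1 RPKM against 2.32, 3.57 and 3.62 RPKM.

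The transcripts furthest below the Xieqingzao B range in R9308 replicate 1 alone were partly single transcripts of a locus that was itself expressed in that library. Os08t0408500-01, a pathogenesis-related transcription factor, had no read in replicate 1, 40.7 RPKM in replicate 2 and 58.4 and 74.9 RPKM in Xieqingzao B, while transcript 02 of that locus had 147, 96.3, 97.1 and 85.6 RPKM. Os05t0380900-01, similar to a calcium-binding polcalcin, had no read in replicate 1 and 40.8, 25.1 and 20.7 RPKM in the other libraries, while its transcript 02 had 83.0 RPKM in replicate 1 and at most 0.229 RPKM in the others. Os03t0342900-01, a dormancy and auxin associated protein, had 0.0968 RPKM in replicate 1 and 31.7, 30.1 and 123 RPKM in the others. In these, replicate 2 of R9308 overlapped Xieqingzao B or lay within 2-fold of it.

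Some genes of diterpenoid biosynthesis were separated higher in R9308. Rice makes diterpenoid phytoalexins, the momilactones and phytocasbanes, which act against microbes and neighbouring plants. Their precursors share geranylgeranyl diphosphate with the gibberellin hormones, and copalyl diphosphate synthases, kaurene synthase-like enzymes and cytochromes P450 then act in turn. The genes for the phytoalexins lie in groups on chromosomes 2 and 4. Of the 28 transcripts listed for diterpenoid biosynthesis 17 were tested, and 6 were separated higher in R9308 and none higher in Xieqingzao B, against 5.58% and 2.81% of all transcripts. The same counts were found without R9308 replicate 1. None was called at tillering. Of the 6, which include transcripts 01 and 02 of Os04t0178300, 5 were tested at heading and all 5 were called higher in R9308 there. Over all transcripts separated higher in R9308 this share was 49.0%. Of 16 listed transcripts tested at heading, 5 were called higher in R9308 and 2 higher in Xieqingzao B.

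On chromosome 4, syn-copalyl diphosphate synthase (Os04t0178300-01), which makes the momilactone precursor, had 102 and 80.5 RPKM in R9308 and 20.4 and 4.39 RPKM in Xieqingzao B (log2 fold change -2.91 ± 0.77, adjusted p = 0.304, edgeR). Syn-pimaradiene synthase (Os04t0179700-01), which takes the next step, had 48.0 and 48.6 RPKM in R9308 and 10.9 and 2.39 RPKM in Xieqingzao B (log2 fold change -2.89 ± 0.72, adjusted p = 0.27, edgeR). The R9308 libraries of both genes were alike, and Xieqingzao B replicate 2 was the lowest. At heading Os04t0179700-01 had 51.7 and 47.3 RPKM in R9308 and 3.66 and 5.82 RPKM in Xieqingzao B (log2 fold change -3.51, adjusted p = 0.0127, edgeR). This gene was also among those the study amplified by quantitative PCR, and the 2 primers are shown as the sequence at hand for it. Both primers are written 5′ to 3′.
Os04t0179700 forward primer: agaccaaaaacatgccgtgcca
Os04t0179700 reverse primer: gcacacgcaatgcgagcatca
The neighbours of these genes were named after their values had been seen. The cytochromes P450 similar to CYP99A1 were separated as well. Os04t0178400-01 had 234 and 153 RPKM in R9308 and 74.5 and 22.9 RPKM in Xieqingzao B, and Os04t0180400-01 had 123 and 92.6 RPKM against 43.0 and 7.47 RPKM. The dehydrogenase-like transcript Os04t0179200-02 was not separated, with 51.5 and 31.0 RPKM in R9308 and 34.8 and 8.69 RPKM in Xieqingzao B.

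On chromosome 2 the ent-kaurene synthase-like transcript Os02t0570400-01 had 132 and 102 RPKM in R9308 and 21.9 and 5.23 RPKM in Xieqingzao B (log2 fold change -3.14 ± 0.79, adjusted p = 0.274, edgeR). The terpenoid synthase domain protein Os02t0571100-01 had 325 and 230 RPKM in R9308 and 48.2 and 5.61 RPKM in Xieqingzao B (log2 fold change -3.40 ± 1.0, adjusted p = 0.362, edgeR). Both were called higher in R9308 at heading, with log2 fold changes of -1.60 (adjusted p = 0.0341, edgeR) and -1.99 (adjusted p = 0.0183, edgeR). Of the cytochromes P450 between and beside them, Os02t0570700-01 had 185 and 123 RPKM in R9308 and 25.7 and 5.77 RPKM in Xieqingzao B. Os02t0569900-01 had 78.0 and 43.9 RPKM against 16.3 and 0.993 RPKM. In every transcript of both groups named here, Xieqingzao B replicate 1 was above replicate 2, and the groups did not overlap except in the dehydrogenase-like transcript. The hybrid was mostly at or below the lower parent, for example with 5.40 and 3.73 RPKM of Os02t0571100-01 and with no read of Os02t0569400-01, which had 23.6 and 12.4 RPKM in R9308 and 3.24 and 0.569 RPKM in Xieqingzao B. Elsewhere the listed members varied. Os06t0569900-01, similar to ent-kaurene oxidase 1, was separated at a low level, with 0.765 and 1.02 RPKM in R9308 and no read in Xieqingzao B. Os06t0570100-01, an ent-kaurene oxidase of gibberellin synthesis, was not separated. It had 14.6 and 16.9 RPKM in R9308 and 18.3 and 15.2 RPKM in Xieqingzao B, and a gibberellin 2-oxidase (Os01t0757200-01), which inactivates the hormone, was not separated either, at 35.2 and 46.5 RPKM against 57.3 and 63.8 RPKM.

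**Figure D4:**
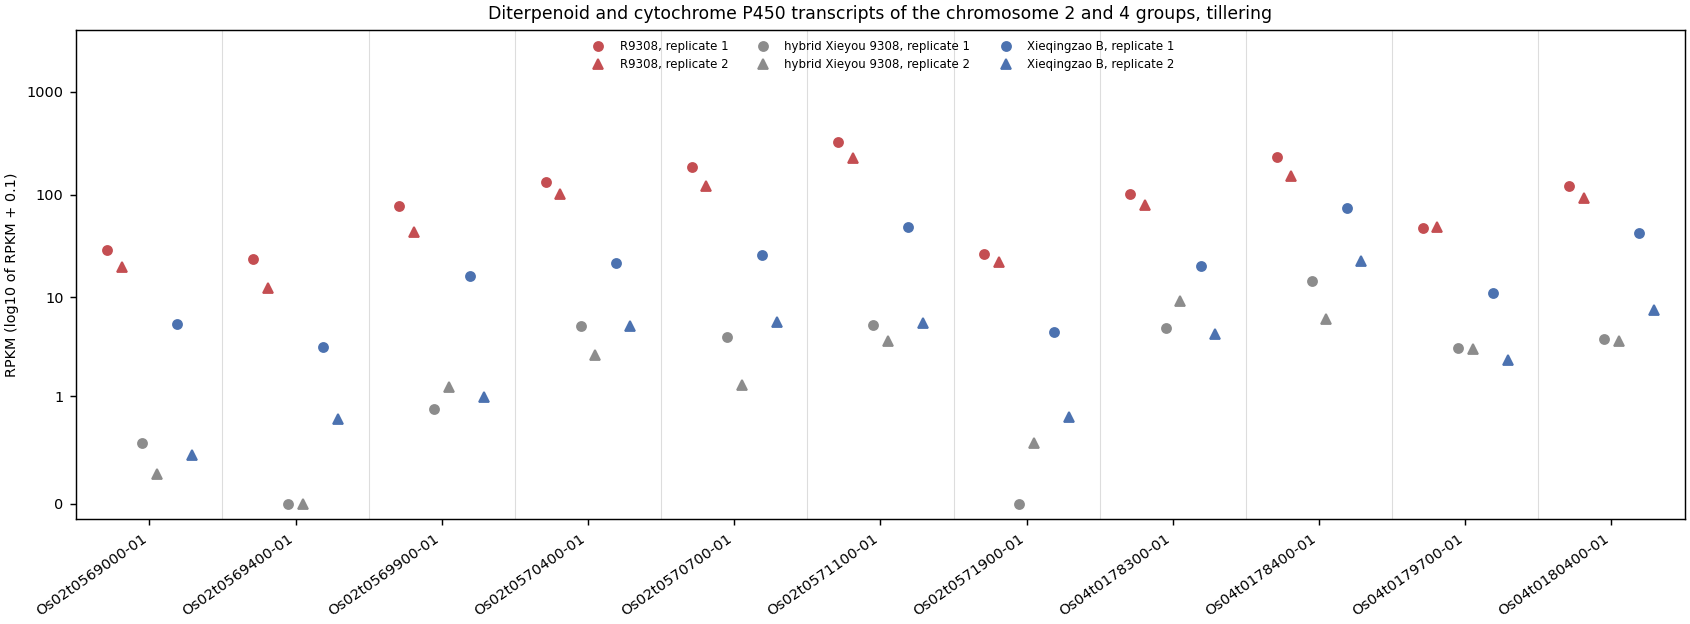
RPKM on a log axis of 11 diterpenoid synthase and cytochrome P450 transcripts of the groups on chromosomes 2 and 4 in each tillering library. Both R9308 libraries lie between 12.4 and 325 RPKM and above both Xieqingzao B libraries in each transcript.

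Cytochromes P450, oxygenases of many plant metabolites, were tested with 179 transcripts. Of these, 28 (15.6%) were separated higher in R9308 and 6 (3.35%) higher in Xieqingzao B, against 5.58% and 2.81% of all transcripts. A further 35 (19.6%) were high in R9308 replicate 1 alone, against 6.95% of all. Without replicate 1 of R9308, 31 (17.3%) and 14 (7.82%) were separated, against 6.64% and 5.03% of all. The highest of the 6 was Os12t0582700-01, with 15.6 and 29.5 RPKM in R9308 and 102 and 102 RPKM in Xieqingzao B (log2 fold change 2.14 ± 0.48, adjusted p = 0.227, edgeR). Of 33 separated transcripts tested at heading, 27 had the same direction there and 11 were called. Over all separated transcripts, 85.8% of those higher in Xieqingzao B and 85.2% of those higher in R9308 kept their direction. Called in it were 49.8% and 49.0%. Glutathione S-transferases, which couple glutathione to foreign and stress-derived compounds, had 7 of 45 transcripts (15.6%) separated, all higher in R9308, with and without its replicate 1, and 12 high in replicate 1 alone. GST 30 (Os10t0531400-01) had 105 and 41.3 RPKM in R9308 and 17.4 and 9.24 RPKM in Xieqingzao B. Os10t0530900-02, similar to GST 30, had 8.86 and 11.9 RPKM in R9308 and no read in Xieqingzao B, at least 38.1-fold lower (adjusted p = 0.147, edgeR), and was called at heading (adjusted p = 0.0163, edgeR). WRKY factors had 7 of 86 (8.14%) separated higher in R9308, against 5.58% of all transcripts. None was separated higher in Xieqingzao B, against 2.81% of all. In either direction together the share was close to the 8.39% of all transcripts. Of the 86, 12 (14.0%) were high in R9308 replicate 1 alone and 22 (25.6%) low in Xieqingzao B replicate 2 alone, against 6.95% and 7.42% of all. WRKY76 (Os09t0417600-02), described in rice as a repressor of defence genes, had 35.1 and 18.2 RPKM in R9308 and 4.33 and 0 RPKM in Xieqingzao B.

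Resistance genes of the NB-ARC type, which encode intracellular receptors for pathogen molecules, were often separated between the parents. Of 180 tested, 49 (27.2%) were separated, 24 higher in Xieqingzao B and 25 higher in R9308, against 8.39% of all transcripts. Only 5 were high in R9308 replicate 1 alone. Without that library 27 (15.0%) and 34 (18.9%) were separated, against 5.03% and 6.64% of all. Os11t0226933-01 had 12.2 and 4.17 RPKM in R9308 and 130 and 182 RPKM in Xieqingzao B. Os11t0623800-00 had 0 and 0.020 RPKM in R9308 and 9.81 and 15.5 RPKM in Xieqingzao B, a ratio of 999 (95% exact counting interval 179 to 39507; adjusted p = 0.12, edgeR). In the other direction Os12t0237900-01 had 13.1 and 8.06 RPKM in R9308 and 0.633 and 0.475 RPKM in Xieqingzao B (log2 fold change -4.27 ± 0.59, adjusted p = 0.104, edgeR). None was called at tillering, but of 44 separated transcripts tested at heading 39 had the same direction and 30 were called in it. Over all separated transcripts, 85.8% of those higher in Xieqingzao B and 85.2% of those higher in R9308 kept their direction. Called in it were 49.8% and 49.0%. The direction differed by chromosome. On chromosome 11, 17 of 57 tested NB-ARC transcripts were separated higher in Xieqingzao B and 4 higher in R9308, and on the other chromosomes 7 and 21 of 123, a split noticed in these data and not tested.

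Genes named as alcohol dehydrogenases, pyruvate decarboxylases or lactate dehydrogenases, enzymes of fermentation when oxygen is short, had 69 tested transcripts. Of these 2 were separated higher in Xieqingzao B and 8 higher in R9308, together 14.5% against 8.39% of all transcripts. Without R9308 replicate 1 the counts were 4 (5.80%) and 11 (15.9%), against 5.03% and 6.64% of all. Os11t0210600-01, similar to alcohol dehydrogenase, had 568 and 323 RPKM in R9308 and 26.6 and 20.6 RPKM in Xieqingzao B (log2 fold change -4.27 ± 1.31, adjusted p = 0.383, edgeR). At heading it was called higher in R9308 (log2 fold change -4.21, adjusted p = 0.0167, edgeR). Its neighbour Os11t0210500-02 had the other direction, with 0 and 13.6 RPKM in R9308 and 40.2 and 135 RPKM in Xieqingzao B. This held for transcript 02 only, since transcript 01 of that locus had 258 and 261 RPKM in R9308 and 172 and 165 RPKM in Xieqingzao B and the locus sum a log2 fold change of -0.29 (adjusted p = 0.902, edgeR). Several others of the 8 are annotated as allyl or sinapyl alcohol dehydrogenases, which belong to other pathways than ethanol fermentation. In peroxidases 6 of 146 were separated higher in Xieqingzao B and 3 higher in R9308, together 6.16%, which is below the share of all transcripts. The highest of the 6, Os05t0499300-01, had 15.3 and 27.2 RPKM in R9308 and 88.8 and 76.2 RPKM in Xieqingzao B (log2 fold change 1.92 ± 0.43, adjusted p = 0.226, edgeR). Without R9308 replicate 1 the counts were 10 (6.85%) and 4 (2.74%), against 5.03% and 6.64% of all. Only 3 of 8 separated peroxidases tested at heading had the same direction there. Over all separated transcripts, 85.8% of those higher in Xieqingzao B and 85.2% of those higher in R9308 did.

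The remaining lists are given as the number separated higher in Xieqingzao B and in R9308, against 2.81% and 5.58% of all transcripts. Heat shock proteins had 5 and 6 of 148, among them a small heat shock protein (Os01t0135900-02) with 96.6 and 29.1 RPKM in R9308 and 0 and 2.89 RPKM in Xieqingzao B. Ubiquitin or F-box proteins, which mark proteins for breakdown, had 16 and 16 of 448. The F-box protein Os06t0138700-01 had 14.0 and 14.8 RPKM in R9308 and 1.07 and 0.613 RPKM in Xieqingzao B (log2 fold change -4.11 ± 0.47, adjusted p = 0.0866, edgeR), and was called at heading (adjusted p = 0.00695, edgeR). Ribosome transcripts had 5 and 3 of 317, and the 60S protein L44 (Os07t0523450-00) had 0.255 and 0 RPKM in R9308 and 23.2 and 13.3 RPKM in Xieqingzao B, a ratio of 180 (95% exact counting interval 31.8 to 7161). Transposon-related transcripts had 3 and 4 of 33, together 21.2% against 8.39% of all. All 7 had the same direction at heading, against 85.8% and 85.2% of all separated transcripts (higher in Xieqingzao B and in R9308). The reverse transcriptase Os08t0441800-01 had 0.371 and 0.247 RPKM in R9308 and 10.5 and 13.3 RPKM in Xieqingzao B (log2 fold change 5.19 ± 0.58, adjusted p = 0.0866, edgeR). Glycolysis had 4 and 9 of 160, phenylpropanoid biosynthesis 3 and 4 of 76, and starch and sucrose metabolism 5 and 3 of 128. Hormone signalling had 1 and 4 of 172, plant-pathogen interaction 1 and 3 of 103, nitrogen metabolism 0 and 2 of 50, and terpenoid synthases 0 and 1 of 13. Histones had 2 and 2 of 91 and MADS factors 2 and 2 of 23 (together 17.4%). Judged without R9308 replicate 1, 5.03% and 6.64% of all transcripts were separated higher in Xieqingzao B and in R9308. More were then higher in Xieqingzao B among heat shock proteins (10, 6.76%), glycolysis (10, 6.25%), starch and sucrose metabolism (8, 6.25%) and phenylpropanoid biosynthesis (5, 6.58%). The same held for plant-pathogen interaction (4, 3.88%), hormone signalling (3, 1.74%) and transposons (6, 18.2%). More were higher in R9308 among hormone signalling (7, 4.07%), starch and sucrose metabolism (6, 4.69%) and MADS factors (4, 17.4%). No transcript was separated among 8 aquaporins or 36 expansins, proteins of water transport and wall loosening.

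Separated loci were unevenly spread along the chromosomes. With the transcripts of each locus summed, 1906 of 23289 loci (8.18%) were separated, 611 higher in Xieqingzao B and 1295 higher in R9308. The share was 19.1% on chromosome 11, 12.4% on chromosome 7 and 10.1% on chromosome 4, and was lowest on chromosome 2 at 5.03%. The share of loci high in R9308 replicate 1 alone varied less, from 5.70% to 7.89%. Of the separated loci, 44.3% had a separated next neighbour among tested loci, against 12.0% of other loci. In sliding windows of 20 neighbouring loci the median was 1 separated locus, 36.8% of windows had 0, and 1.05% had 10 or more.

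**Figure D5:**
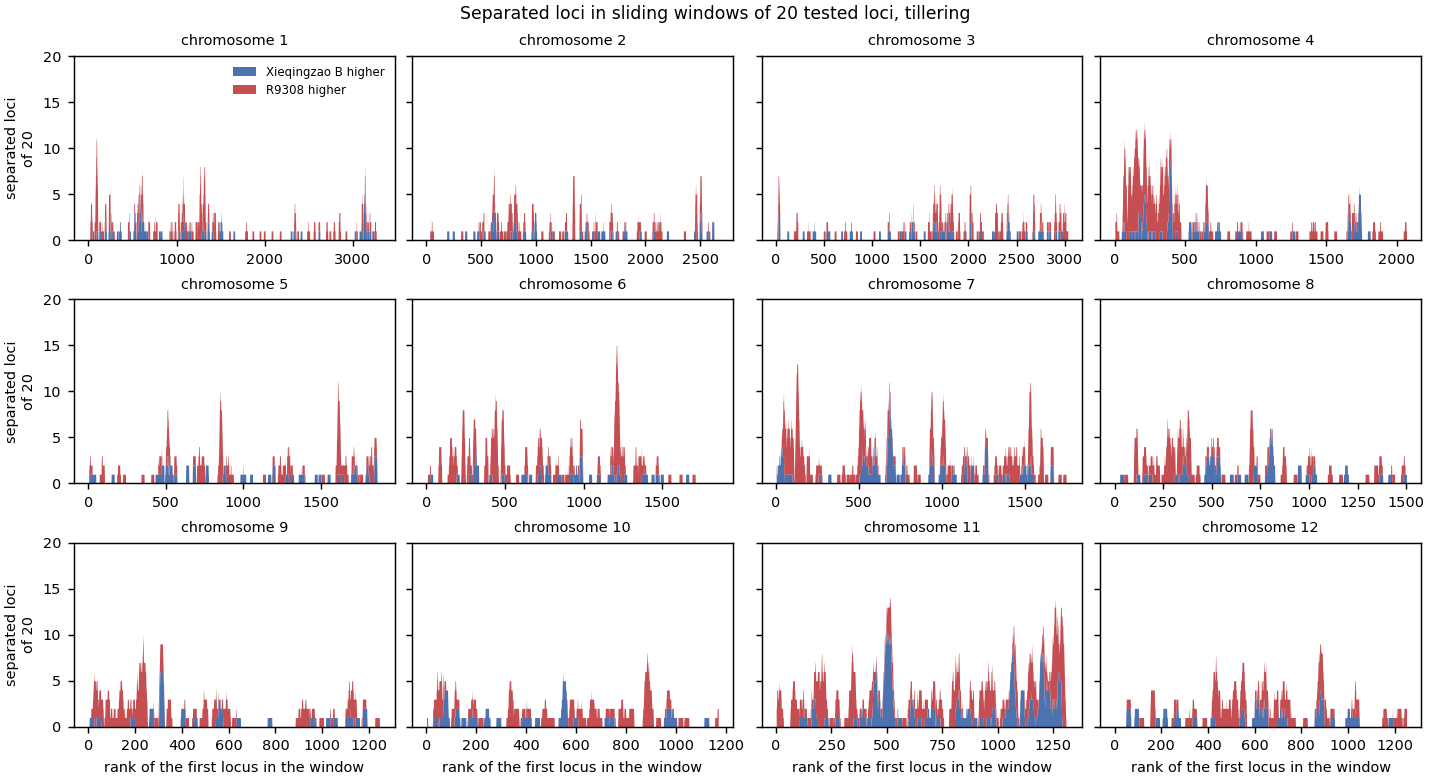
Number of separated loci in sliding windows of 20 tested loci along each chromosome, in the order of the locus identifiers, stacked by the higher parent. The fullest window, on chromosome 6, holds 15, and the median over all windows is 1.

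The fullest window lay on chromosome 6, from Os06t0578100 to Os06t0586900, where 15 of 20 loci were separated, 14 of them higher in R9308. Most were hypothetical genes. Os06t0586000 had 134 and 121 RPKM in R9308 and 0.857 and 0 RPKM in Xieqingzao B, and the receptor-like protein Os06t0586900, similar to an elicitor-inducible LRR protein, had 12.6 and 19.9 RPKM against 0.336 and 0.0838 RPKM. Of the 13 also tested at heading, 10 were separated in the same direction there. On chromosome 11 the window from Os11t0226933 to Os11t0233400 held 14 separated loci, 10 higher in Xieqingzao B and 4 higher in R9308, many of them resistance genes. There Os11t0228600, similar to an NBS-LRR protein, had 4.78 and 4.89 RPKM in R9308 and 39.6 and 63.1 RPKM in Xieqingzao B, while Os11t0227100, of the same family, had 11.6 and 13.2 RPKM against 2.62 and 2.31 RPKM. Neighbouring genes of 1 family thus had opposite directions, and 11 of the 14 had the same separation at heading.

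Another window on chromosome 11, from Os11t0686500 to Os11t0694200, had 11 loci higher in R9308 and 3 higher in Xieqingzao B, among them protein kinases, and 7 of 10 tested at heading had the same separation there. Os11t0691100, similar to a protein kinase, had 539 and 734 RPKM in R9308 and 9.08 and 0.103 RPKM in Xieqingzao B. Further along, the window from Os11t0696200 to Os11t0702100 held 13 separated loci, 5 higher in Xieqingzao B and 8 higher in R9308. Those higher in R9308 included class III chitinases, which cut the chitin of fungal walls. Of the 10 separated loci of this window tested at heading, 5 had the same separation there, and of the 5 annotated as class III chitinases 1 did. Os11t0701900, a family 18 glycoside hydrolase, had 24.9 and 44.4 RPKM in R9308 and 1.91 and 0.568 RPKM in Xieqingzao B. On chromosome 4, 12 loci from Os04t0167800 to Os04t0175900, close to the diterpenoid group, were separated, 11 higher in R9308, and all 10 tested at heading were separated in the same direction there. The chromosome 4 window from Os04t0319900 to Os04t0335400 had 9 loci higher in Xieqingzao B and 3 higher in R9308. Of the 11 tested at heading, 9 had the same separation. A window on chromosome 7 from Os07t0124100 to Os07t0127700 had 13 loci higher in R9308, annotated as pathogenesis-related protein PR-1 or as the related allergen V5 family, and 8 of 13 had the same separation at heading. Their values repeated between loci, and the 16 separated transcripts of the run held only 4 sets of values, so these copies share reads and cannot be counted as separate genes. The most abundant set, at Os07t0124900, had 376 and 314 RPKM in R9308 and 92.8 and 27.4 RPKM in Xieqingzao B.

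Whether a parental difference itself changed between the stages was tested in 1 fit over all 12 libraries. None of 29560 transcripts passed (0%; edgeR quasi-likelihood test), 3668 had an unadjusted p under 0.05, and the smallest adjusted p was 0.127. DESeq2 called 1129. The calls at heading that were absent at tillering are therefore not shown to be differences between the stages.

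In the hybrid, 75.6% of the 799 transcripts separated higher in Xieqingzao B and 64.9% of the 1588 separated higher in R9308 had a mean level between those of the parents. The hybrid libraries themselves differed more than those of either parent, with an SD of the log2 ratio between replicates of 1.63 against 1.14 in R9308 and 1.17 in Xieqingzao B, and with 4277 transcripts over 4-fold apart against 1760 and 1839. At or below the lower parent were 7.51% of the former and 28.9% of the latter, and at or above the higher parent 16.9% and 6.17%. The hybrid was thus placed at or below the low parent more often in number where R9308 was the high parent, a comparison of shares for which no test was made.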

How the data were processed

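The members and gene lists were chosen with earlier results of these data known. Base calls came from the Illumina pipeline (CASAVA 1.8 in the submitters' processing notes). The authors removed and trimmed reads of low quality, placed the rest on IRGSP build 5.0 of Nipponbare using RSEM 1.1.11, and deposited raw counts, 1 whole number for each annotated transcript and library. The RPKM values the authors deposited equal those counts over transcript length and library sum (largest relative deviation 4.53e-08). The library kit did not mark strand, so antisense and overlapping genes cannot be told apart. The authors' own columns of fold changes, p-values and FDR between genotypes were not used. No RAP identifier matched the RefSeq table, so names are those of the deposited annotation.

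For the 6 tillering libraries, transcripts kept by filterByExpr were scaled by TMM and fitted with group as the only term, using the quasi-likelihood F-test of edgeR 4.0.16 under R 4.3.3 with limma 3.58.1. The residual degrees of freedom were 3 and the prior ones 2.574. The 6 heading libraries were fitted alike, and the interaction on all 12. Separation was read on log2 CPM (TMM, prior count of 2) with a gap of 1. A fold against a parent with no count is a lower bound from 3 counts per library, and ratios against 1 to 3 counts carry exact 95% intervals for counting error only. Loci were ordered by RAP identifier.

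The transcripts named were all calls, the largest gaps in each direction and in R9308 replicate 1 alone among annotated transcripts with a mean of at least 5 RPKM, the member with the largest gap of each list, tissue markers and other transcripts of these loci. Other transcripts named within lists and chromosome windows were chosen after their values were seen. Alternatives were DESeq2 1.42.0, other scalings, filters, sets of libraries and gaps, a replicate block, exact tests, locus sums and left-out libraries. Replicate numbers did not pair the samples. Classes without R9308 replicate 1 or Xieqingzao B replicate 2, the split at 4-fold and windows of 10 loci were chosen after seeing the data. The code of the tests was checked on simulated counts. A minimum number of calls was required there only at a spread lower than that of these libraries. The check therefore does not show how many differences the test would miss here. Python 3.11.15, numpy 2.4.6, pandas 2.3.3, scipy 1.17.1 and matplotlib 3.10.9 were used for the rest.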

Additional observations from a re-analysis of the deposited data

Results flagged for a closer look

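In 5 named transcripts all libraries lay on 1 side at tillering and on the other at heading, while the difference between the stages did not pass the test. Os09t0346500-02, a chlorophyll a-b binding protein, had 441 and 4.85 RPKM in R9308 and no read in Xieqingzao B at tillering, and 0.214 and 0 RPKM against 12.4 and 26.3 RPKM at heading (heading minus tillering 21.52 on the log2 scale, adjusted p = 0.18, edgeR). Os08t0560900-01, a photosystem I subunit, had 292 and 1.26 RPKM against 0.200 and 0.258 RPKM at tillering, and 2.09 and 2.64 RPKM against 15.1 and 7.77 RPKM at heading (heading minus tillering 11.39 on the log2 scale, adjusted p = 0.199, edgeR). In both, the tillering level of R9308 rests on replicate 1, and so does the value of 11.39. Os11t0210500-02, similar to alcohol dehydrogenase, had 0 and 13.6 RPKM against 40.2 and 135 RPKM at tillering, and 167 and 107 RPKM against 17.6 and 20.5 RPKM at heading (-6.61, adjusted p = 0.249, edgeR). Os06t0660700-02, similar to a ubiquitin-conjugating enzyme, had 0 and 0.235 RPKM against 1.02 and 28.9 RPKM at tillering, and 22.7 and 25.2 RPKM against 19.9 and 1.57 RPKM at heading (-7.97, adjusted p = 0.25, edgeR). Os08t0113100-02, of the starch and sucrose list, had 13.7 and 15.6 RPKM against 78.9 and 110 RPKM at tillering, and 53.1 and 53.9 RPKM against 49.4 and 7.04 RPKM at heading (-3.73, adjusted p = 0.324, edgeR).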

How the results depend on the processing

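The number of calls depended on the test. Against 7 calls (85.7% higher in Xieqingzao B), DESeq2 gave 1253 (31.4%), the exact test 1734 with a common and 1076 with tagwise dispersions, a fit of all 12 libraries 584 (31.2%), locus sums 114 (41.2%), no filter 27 (55.6%) and the 4 parental libraries alone 3. All 7 transcripts or their loci were called by each of these except the last. Of the DESeq2 calls 1130 were separated and 96 were outside the Xieqingzao B range in R9308 replicate 1 alone. Library size, relative log expression and a minimum of 5 RPKM gave 7, 7 and 8. Without 1 library, its partner being assumed to vary like the other groups, the calls numbered 0 to 0, with 1430 to 2489 unadjusted p under 0.05, and the separated transcripts higher in Xieqingzao B 1389 to 1429. With a replicate block 0 were called (2197 unadjusted, smallest adjusted p 0.221). The pairing of numbers was not borne out, with correlations of deviations of 0.0429 (R9308 and Xieqingzao B), -0.00712 (R9308 and hybrid) and -0.355 (Xieqingzao B and hybrid).

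A 4-fold gap left 348 and 810 separated transcripts (higher in Xieqingzao B and R9308), and 902 high and 298 low in R9308 replicate 1 alone. On log2(RPKM + 1) the separated were 498 and 1036 and the low 624, with at least 5 RPKM they were 266 and 600, with 958 high and 497 low, and locus sums gave 680 low. With both heading libraries of each parent required on the tillering side, the shares were 74.8% and 75.8% of separated transcripts and 22.9% and 24.4% of those high and low in replicate 1 alone, against 28.9% and 27.7% of all. With a 4-fold gap they were 94.3%, 91.6%, 41.2% and 53.6%. The interaction gave 1129 calls with DESeq2, and 0 with the block or without R9308 replicate 1. In windows of 10 loci the fullest was 100% separated, the PR-1 run. Locus sums reversed Os01t0360200-02 (0.83), Os01t0926300-02 (0.18), Os11t0210500-02 (-0.29) and Os11t0572500-02 (0.11), where other transcripts of the locus go the other way, and no other setting reversed any of the 54 transcripts followed. The cause of the other shifts was not tested. Differences that were not called are not shown to be absent.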
